A study of Danio rerio with 5 samples.

Results

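The genes described here are 9 zebrafish transcription factor genes linked to ventral and non-neural ectoderm: gata2a, gata3, tp63, grhl1, grhl3, cdx4, cdx1b, klf2a and klf2b. They were picked by name from a table of 22656 genes, and all 9 were in it. Total RNA was sequenced from Tübingen strain embryos that had been freed of chorion and yolk. The post-MBT group was taken at 5.3 hours post-fertilisation (hpf), at the 30% epiboly stage, and holds 2 libraries (A and B). The MBT group, named for the mid-blastula transition, was taken at 4 hpf, at the sphere stage, and holds 3 libraries (A, B and C). No treatment or mutant allele is named for either group, and the labels do not say whether embryos were pooled or whether libraries stem from different clutches. The p-values therefore rest on library-to-library spread, some of which may be technical.

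At the mid-blastula transition the embryo starts bulk transcription of its own genome while maternal transcripts are still present. BMP ligands on the ventral side then set ectoderm on an epidermal rather than a neural path. In zebrafish the GATA factors of ventral ectoderm and the epidermal factor Tp63 act downstream of BMP signals, and Tp63 is required for epidermal growth. Grainyhead-like factors control epithelial genes, among them genes of the enveloping layer, the outermost epithelium of the early embryo. Krüppel-like factors Klf2a, Klf2b and Klf17 have been placed downstream of Pou5f3 in the enveloping layer and ectoderm. Caudal-type homeobox factors pattern the posterior body, where Cdx4 (the kugelig gene) acts upstream of Hox genes and of blood formation. RNA of embryos freed of yolk but not labelled by region carries no position, so these data do not show where in the embryo a gene was transcribed. Fewer cells of a type and less RNA per cell cannot be told apart.

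Total counts ran from 3204831 to 3701401 in the post-MBT libraries and from 2488983 to 3641226 in the MBT libraries. Genes of the mitochondrial chromosome took 51.3 and 51.5% of the counts in the post-MBT libraries and 43.0 to 50.6% in the MBT libraries. The stage labels were set against marker lists. These lists were chosen with earlier results of these data known, so they are no independent check of the labels. The zygotic markers ta, tbx16, krt8, sox3, vent and ved also stand in other lists below. Of 11 tested zygotic markers, among them ta, tbx16 and mixl1, all 11 were higher post-MBT (2 were under 10 counts in every MBT library), and their summed level was 3286 to 3423 CPM post-MBT against 352 to 373 CPM at the MBT. Of 11 tested oocyte and egg transcripts, among them btg4 and buc, 9 were lower post-MBT (1 was under 10 counts in every post-MBT library) and none higher. The summed level of that list was 410 to 413 CPM post-MBT against 1117 to 1190 CPM at the MBT. Among all tested genes, 31.0% were called higher and 31.8% lower post-MBT (calls are defined below). Of 24 genes listed for differentiated tissues, only 10 were found in the table. None of these had enough counts to be tested, and their highest count in any library was 10. Listed genes that were not found, among them alas2 and tal1, could not be assessed.

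Levels are in CPM, the share of a library's counts scaled with TMM factors. Fold changes are post-MBT over MBT, tested with edgeR (quasi-likelihood) and adjusted by Benjamini-Hochberg over all 12007 tested genes. A gene was called at an adjusted p under 0.05. Of the 9 genes, 8 had enough counts to be tested. Of these, cdx4 reached the count minimum only in the post-MBT libraries, which nearly fixes its direction. Higher post-MBT levels were called for 6 of the 8 (gata2a, gata3, tp63, grhl1, grhl3 and cdx4), where 31.0% of all tested genes were called higher. A lower post-MBT level was called for klf2a, where 31.8% of all tested genes were called lower, and klf2b had no call. In all, 62.8% of tested genes were called in either direction, 3724 higher and 3813 lower post-MBT, and 2173 higher and 5574 lower with library totals as scaling. The post-MBT libraries lay entirely above the MBT libraries for the 6 higher genes and entirely below for klf2a, and 73.9% of all tested genes showed no overlap between the stages (36.3% higher and 37.6% lower post-MBT). Scaled by library totals, 3 of the 9 genes were called higher and 1 lower, where 64.5% of all tested genes were called in either direction. The same 3 and 1 were counted with DESeq2, where 37.6% of the genes with an adjusted p were called. The calls of gata2a, grhl1, cdx4 and klf2a held in all 11 alternative fits, while those of gata3, tp63 and grhl3 did not.

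**Figure D1:**
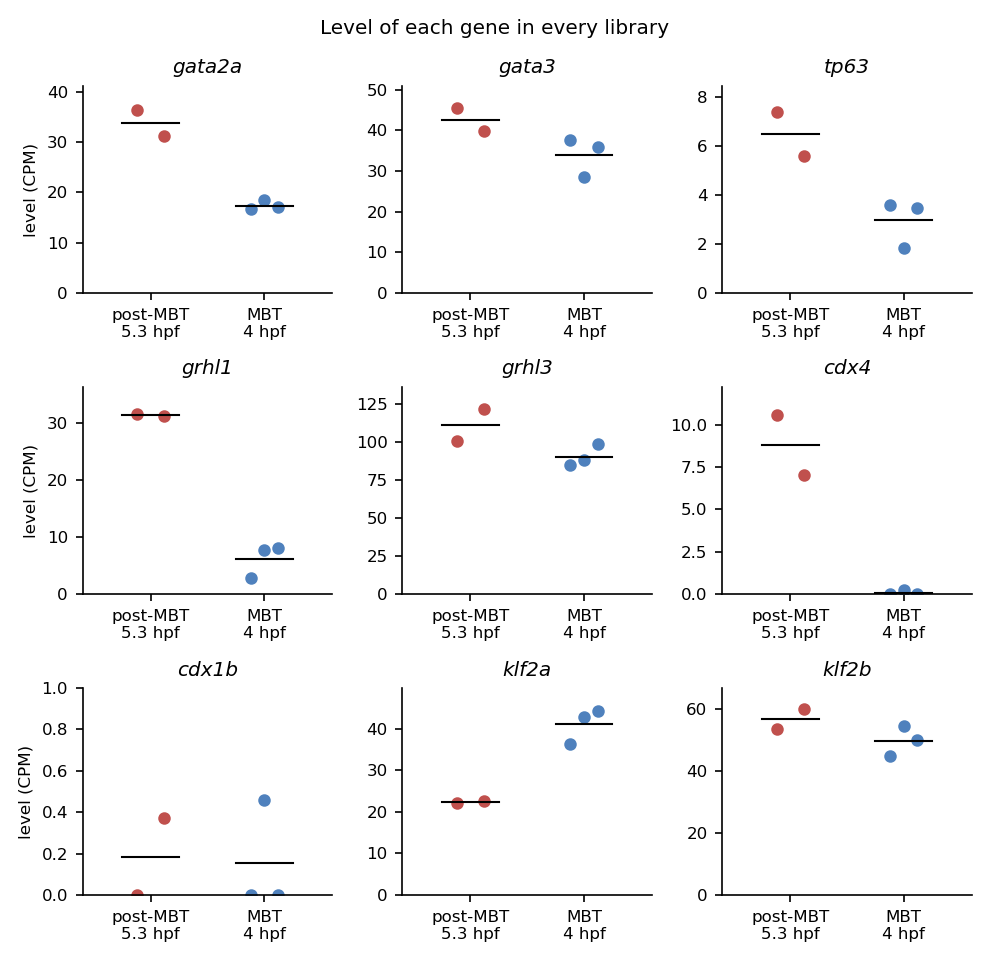
Level of each gene in CPM (vertical axes, from 0, a different scale for each gene) in every library, with post-MBT libraries on the left and MBT libraries on the right; points are libraries and black lines are group means. The 2 groups overlap for cdx1b and klf2b, and klf2a is lower in both post-MBT libraries.

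The GATA genes encode zinc-finger factors that mark ventral ectoderm and later serve blood and other lineages. The gene gata2a (chromosome 11, 3828494 to 3846221 on the build D_rerio_Sep_2014, minus strand) had 36.4 and 31.2 CPM in post-MBT A and B, against 16.6, 18.4 and 17.1 CPM in MBT A, B and C. The groups lay apart, and the MBT libraries were close to each other. Its mean was 33.8 ± 3.65 CPM post-MBT (SD, n = 2) and 17.3 ± 0.91 CPM at the MBT (SD, n = 3). The log2 fold change was 0.96 ± 0.18 (SE; edgeR adjusted p = 3.26e-06), which is 1.94-fold. By log2 fold change, gata2a stood above 83.0% of the tested genes.

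The related gata3 (chromosome 4, 25065312 to 25080501, minus strand) had 45.4 and 39.8 CPM in post-MBT A and B, against 37.5, 28.5 and 35.9 CPM in MBT A, B and C. The lowest post-MBT library was only slightly above the highest MBT library. Its log2 fold change was 0.35 ± 0.15 (edgeR adjusted p = 0.036). The call was lost without post-MBT A, at a log2 fold change of 0.25 (edgeR adjusted p = 0.318), and without MBT B, at 0.20 (edgeR adjusted p = 0.242). It was also lost with no count filter, at 0.31 (edgeR adjusted p = 0.102), and with DESeq2, at 0.35 (adjusted p = 0.236). Scaled by library totals instead of TMM factors, the value was -0.06 (edgeR adjusted p = 0.769). That scaling moved the median over all tested genes by -0.41, to -0.46. Relative to the median of all tested genes, gata3 stood 0.40 higher with TMM factors and 0.39 higher with library totals. A change of scaling can hardly alter this distance, so it is no check of the call.

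The gene tp63 (chromosome 6, 28886745 to 28923664, plus strand) encodes a regulator of epidermal progenitors. It had few counts, 23 and 15 in post-MBT A and B and 10, 8 and 10 in MBT A, B and C. These correspond to 7.40 and 5.57 CPM post-MBT, against 3.61, 1.84 and 3.48 CPM at the MBT. The post-MBT libraries were the higher ones, by a margin of a few counts. The log2 fold change was 1.20 ± 0.41 (edgeR adjusted p = 0.00872), which is 2.29-fold, with the widest standard error among the tested genes described here other than cdx4. The call was lost without MBT B, at a log2 fold change of 0.86 (edgeR adjusted p = 0.0637), and without post-MBT A, at 0.96 (edgeR adjusted p = 0.175). With library totals it was 0.78 (edgeR adjusted p = 0.0925), and with DESeq2 it was 1.17 (adjusted p = 0.143).

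Both Grainyhead-like genes were called higher post-MBT, grhl1 by far more than grhl3, whose call was lost in some alternative fits. Both genes encode factors that activate epithelial junction and barrier genes, and both lie on chromosome 17. The gene grhl1 (32438449 to 32473921, minus strand) had 31.6 and 31.2 CPM in post-MBT A and B, against 2.89, 7.80 and 8.01 CPM in MBT A, B and C. MBT A, with 8 counts, was the lowest of the 3, while the post-MBT libraries hardly differed. The log2 fold change was 2.27 ± 0.23 (edgeR adjusted p = 5.86e-14), which is 4.84-fold, and without MBT A it was 1.97. By log2 fold change, grhl1 stood above 95.4% of the tested genes.

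The gene grhl3 (26946969 to 26958790, plus strand) had 101 and 122 CPM in post-MBT A and B, against 84.8, 87.9 and 98.9 CPM in MBT A, B and C. Post-MBT A lay just above MBT C, so the gap between the stages was small. The log2 fold change was 0.30 ± 0.10 (edgeR adjusted p = 0.0104), which is 1.23-fold. The call was lost without post-MBT B, at 0.17 (edgeR adjusted p = 0.308), and with DESeq2, at 0.31 (adjusted p = 0.0884). With library totals the value was -0.11 (edgeR adjusted p = 0.455). That is 0.35 above the median of all tested genes on that scale, a distance that a change of scaling can hardly alter.

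The largest difference among the tested genes described here was that of the posterior homeobox gene cdx4 (chromosome 14, 32621389 to 32624844, minus strand). It had 33 and 19 counts in post-MBT A and B, or 10.6 and 7.06 CPM. In MBT A, B and C it had 0, 1 and 0 counts. Nearly all of its counts were thus post-MBT. The ratio of the summed counts, 52 post-MBT against 1 at the MBT, was 89.7 after scaling (95% exact counting interval 15.4 to 3611, which covers counting error only). The fitted log2 fold change was 6.01 ± 0.76 (edgeR adjusted p = 7.74e-12), a size that depends on the prior count because so few reads were seen at the MBT. It was called in all 11 alternatives, at log2 fold changes of 5.63 to 7.68. Only its post-MBT counts reached the count minimum, which nearly fixes the direction of cdx4. Over all tested genes, 541 were under 10 counts in every MBT library, and 486 of them were called higher.

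The related caudal gene cdx1b (chromosome 21, 43984300 to 43996788, minus strand), known in zebrafish for its part in gut development, was almost without counts. It had 0 and 1 counts in post-MBT A and B, against 0, 2 and 0 counts in MBT A, B and C. Where it was 0, up to 3 counts are still possible, or 0.966 CPM in post-MBT A and 1.08 and 1.05 CPM in MBT A and C. A difference between the stages was not detectable at this depth, and no fold change is given.

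Of the Krüppel-like genes klf2a and klf2b, which encode zinc-finger factors of the enveloping layer and ectoderm, only klf2a was called. The gene klf2a (chromosome 22, 15871951 to 15874649, plus strand), whose product is also a flow-responsive regulator of endothelium later in life, had 22.2 and 22.7 CPM in post-MBT A and B. In MBT A, B and C it had 36.4, 42.9 and 44.2 CPM. All MBT libraries lay above both post-MBT libraries, and the mean was 22.4 ± 0.322 CPM post-MBT (SD, n = 2) and 41.2 ± 4.17 CPM at the MBT (SD, n = 3). The log2 fold change was -0.88 ± 0.17 (edgeR adjusted p = 3.18e-06), a 1.84-fold lower level, and it ranged from -1.29 to -0.83 over the alternatives. Of the tested genes, 22.3% had a lower log2 fold change.

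The paralog klf2b (chromosome 19, 17832524 to 17838270, plus strand) had 53.4 and 59.8 CPM in post-MBT A and B, against 44.7, 54.4 and 49.8 CPM in MBT A, B and C. The stages overlapped, since post-MBT A lay below MBT B. The log2 fold change of 0.17 ± 0.13 was not called (edgeR adjusted p = 0.24), and it was -0.24 with library totals (edgeR adjusted p = 0.177).

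**Figure D2:**
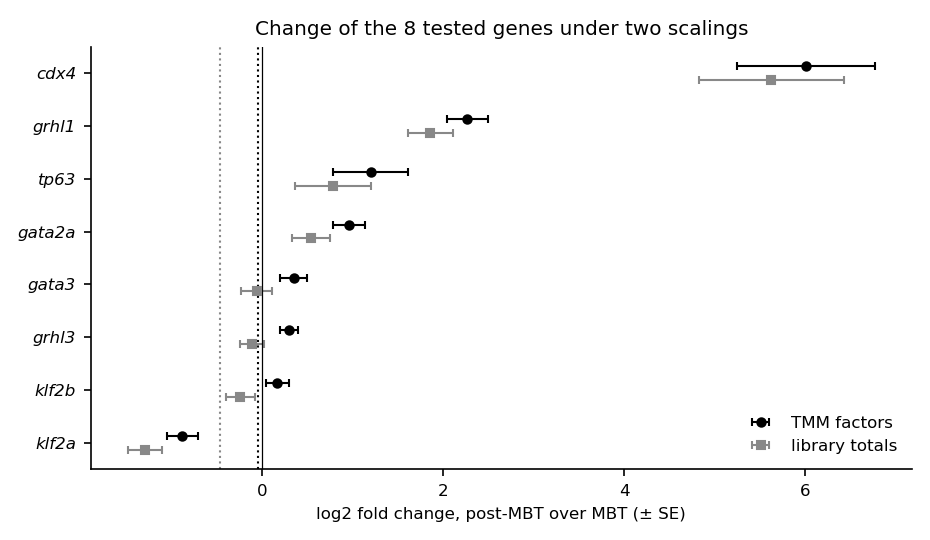
Log2 fold change (horizontal axis, post-MBT over MBT, ± SE) of the 8 tested genes with TMM factors (black circles) and with library totals (grey squares); dotted lines mark the median of all tested genes on each scale, -0.04 and -0.46. The values of gata3, grhl3 and klf2b change sign between the scales, while klf2a stays below and cdx4, grhl1, tp63 and gata2a stay above 0.

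The authors' deposited table gives log2 ratios the other way round, as MBT over post-MBT, so a negative value there means a higher post-MBT level. In the authors' deposited table, the ratio was -3.96 for cdx4, -2.18 for grhl1, -0.94 for gata2a and 0.85 for klf2a, with adjusted p-values of 3.77e-08, 2.84e-09, 0.00121 and 0.00113 from DESeq2. These 4 genes are also the ones called in every alternative fit. Those fits include DESeq2 on the same counts, so the match is not independent. The ratios of tp63, gata3, grhl3 and klf2b in the authors' deposited table were -0.99, -0.34, -0.30 and -0.19, with adjusted p-values of 0.134, 0.226, 0.0833 and 0.453 from DESeq2.

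Pairs of related genes were compared by the ratio of their counts within a library, which needs no scaling factor. The change in the ratio was largest for the caudal pair, where cdx4 had 52 counts post-MBT against 1 at the MBT and cdx1b had 1 count post-MBT against 2 at the MBT. Counts of klf2a per count of klf2b were 0.416 and 0.379 in post-MBT A and B, against 0.815, 0.789 and 0.888 in MBT A, B and C. There was thus less klf2a relative to klf2b in both post-MBT libraries, with a mean of 0.397 ± 0.026 post-MBT (SD, n = 2) and 0.831 ± 0.0515 at the MBT (SD, n = 3). Counts of grhl3 per count of grhl1 were 3.21 and 3.89 in post-MBT A and B, against 29.4, 11.3 and 12.3 in MBT A, B and C. The high value of MBT A came with its 8 counts of grhl1, and all MBT libraries lay above the post-MBT ones.

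Counts of gata2a per count of gata3 were 0.801 and 0.785 in post-MBT A and B, against 0.442, 0.645 and 0.476 in MBT A, B and C. The pair was more even post-MBT, and MBT B stood closer to the post-MBT libraries than the others. On the log2 scale, with 0.5 added to each count, the mean ratio changed by -1.06 for klf2a over klf2b, -2.14 for grhl3 over grhl1, 5.13 for cdx4 over cdx1b and 0.62 for gata2a over gata3. The 2-sided exact permutation test gave p = 0.1 for the first 3 and p = 0.2 for the GATA pair. Adjusted over the 4 pairs, the exact permutation p-values were 0.133 for the first 3 and 0.2 for the GATA pair. With 10 ways to split the libraries, p = 0.1 is the smallest value that the exact test can give.

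**Figure D3:**
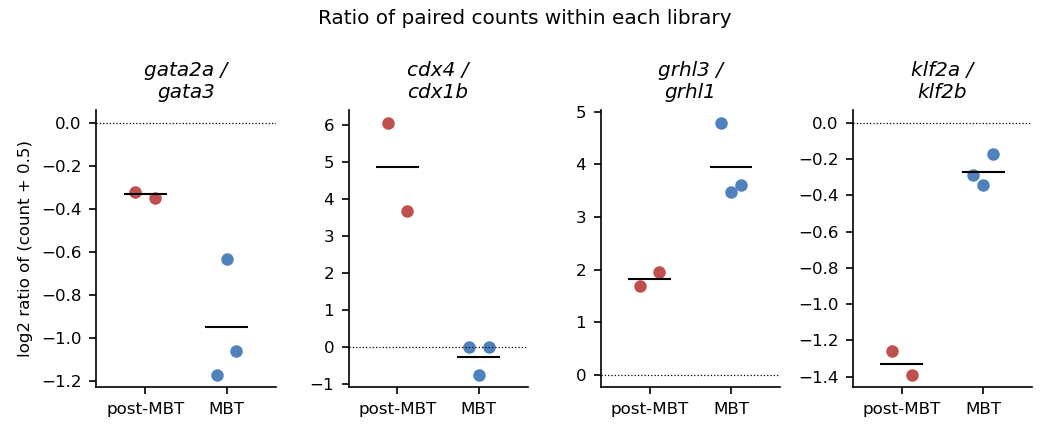
Log2 ratio of counts, each plus 0.5, of 4 gene pairs in every library (vertical axes, a different scale for each pair), with post-MBT libraries on the left and MBT libraries on the right; black lines are means and the dotted line marks equal counts. The klf2a over klf2b ratio runs from -1.39 to -1.26 post-MBT and from -0.34 to -0.17 at the MBT.

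To compare levels between genes, CPM were divided by the exonic length in kilobases. At both stages grhl3 had the highest level, at 40.6 ± 5.18 CPM per kb post-MBT (SD, n = 2) and 33.0 ± 2.71 CPM per kb at the MBT (SD, n = 3). Averaged over the libraries, this level stood above those of 89.7% of the tested genes. Post-MBT the order went on with klf2b at 15.6 CPM per kb, grhl1 at 14.0, gata3 at 13.4, gata2a at 11.2, klf2a at 10.3, cdx4 at 5.39 and tp63 at 2.18. In that order the libraries of grhl1 and gata3 overlapped, as did those of gata2a and klf2a, while those of the other neighbours lay apart. The gap was narrow between klf2b and grhl1 (14.8 against 14.1 CPM per kb in the closest libraries) and between gata3 and gata2a (12.5 against 12.1).

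At the MBT the order after grhl3 was klf2a at 18.9 CPM per kb, klf2b at 13.7, gata3 at 10.7, gata2a at 5.77, grhl1 at 2.78 and tp63 at 1.0. Libraries of these neighbours lay apart, but narrowly between klf2b and gata3 (12.4 against 11.8 CPM per kb in the closest libraries). In MBT A, grhl1 and tp63 were close, at 1.29 and 1.21 CPM per kb from only 8 and 10 counts. Both caudal genes came last there, at 0.0797 CPM per kb for cdx1b and 0.0466 for cdx4, and their libraries overlapped. Between the stages klf2a therefore held rank 6 post-MBT and rank 2 at the MBT, and grhl1 held rank 3 post-MBT and rank 6 at the MBT. All 9 ranks were the same with library totals, at both stages. That outcome was nearly fixed in advance, because a scaling factor moves all genes of a library alike.

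The genes with the most similar levels over the 5 libraries were sought among 9126 tested genes (clone and locus names left out), by Euclidean distance in log2(CPM + 0.5). The nearest to klf2b was the prohibitin gene phb at a distance of 0.07, and to gata2a it was the small nucleolar ribonucleoprotein gene gar1 at 0.10. For grhl3 it was zc3h4 (0.16), for gata3 the translation factor gene eif4h (0.19) and for klf2a plekhf2 (0.20). The low and strongly changed genes had less close neighbours, the segmentation gene mespab for cdx4 (0.48), bin3 for tp63 (0.49) and the Iroquois homeobox gene irx3a for grhl1 (0.51). The homeobox gene irx3a had 30.6 and 33.4 CPM in post-MBT A and B, against 3.61, 7.34 and 5.92 CPM in MBT A, B and C.

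Relatives of these genes moved in both directions. Of 27 relatives with counts listed, 16 were tested, with 8 higher post-MBT, 4 lower and 4 without a call, and a median log2 fold change of 0.35 against -0.04 over all tested genes. Of all tested genes, 31.0% were called higher and 31.8% lower. With library totals 5 of the relatives were higher and 7 lower. Genes under 10 counts in every MBT library were tested mostly because of their post-MBT counts, which nearly fixes their direction. The filter scales its minimum of 10 counts to library size, so this group is approximate. Such genes were 3 of the 16 tested relatives (gata5, gata6 and klf5b), and 541 of all 12007 tested genes, of which 486 were called higher. The endoderm and heart regulators gata5 and gata6 rose most, by log2 fold changes of 6.54 ± 0.33 and 4.97 ± 0.36 (edgeR adjusted p = 1.02e-30 and 2.20e-21). The gene gata5 had 47.0 and 53.9 CPM in post-MBT A and B, against 0.361, 0.459 and 0.697 CPM in MBT A, B and C. The genes gata1b, gata2b and gata4 had at most 5 counts in any library and were not tested.

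The third Grainyhead-like gene that could be tested, grhl2a, lay between the other two in change, at a log2 fold change of 0.94 ± 0.27 (edgeR adjusted p = 0.00176). Its level was 14.8 and 12.3 CPM in post-MBT A and B, against 6.86, 7.80 and 6.27 CPM in MBT A, B and C. Its call was lost with library totals, with DESeq2 and without post-MBT A. The tp63 relative tp73 had 7 and 9 counts in post-MBT A and B, against 1, 4 and 3 in MBT A, B and C, too few for the test.

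Among the Krüppel-like genes, klf3 rose by a log2 fold change of 2.87 ± 0.23 (edgeR adjusted p = 8.74e-19), klf5b by 2.36 ± 0.63 and klf18 by 1.24 ± 0.40. The gene klf5b was under 10 counts in every MBT library, which nearly fixes its direction. A locus that RefSeq lists under the older name of klf8, si:ch211-208m1.2, rose by 0.51 ± 0.12. The calls of klf18 and of this locus were lost with library totals, and that of klf18 also with DESeq2 and without post-MBT B. The genes klf11a, klf12a, klf9 and klf11b fell, by log2 fold changes of -1.42 ± 0.28, -2.06 ± 0.74, -0.83 ± 0.37 and -0.75 ± 0.33. Of these falls klf11a alone was called in all 11 alternatives. The gene klf12a was under 10 counts in both post-MBT libraries and was tested only because of its MBT counts. Over all tested genes, 968 were under 10 counts in both post-MBT libraries, and 632 of them were called lower. The gene klf17, which has been placed with klf2a and klf2b in the enveloping layer and ectoderm, had 70.2 and 73.6 CPM in post-MBT A and B, against 82.3, 72.7 and 84.6 CPM in MBT A, B and C. The stages overlapped, and its log2 fold change of -0.14 ± 0.11 was not called (edgeR adjusted p = 0.271), though with library totals it was called lower. No call was made for klf13 (0.18 ± 0.29), klf6a (-0.49 ± 0.29) and klf7b (-0.95 ± 0.57). With library totals klf6a and klf7b were also called lower and klf13 turned below 0. Like klf12a, klf7b was under 10 counts in both post-MBT libraries, which nearly fixes its direction.

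**Figure D4:**
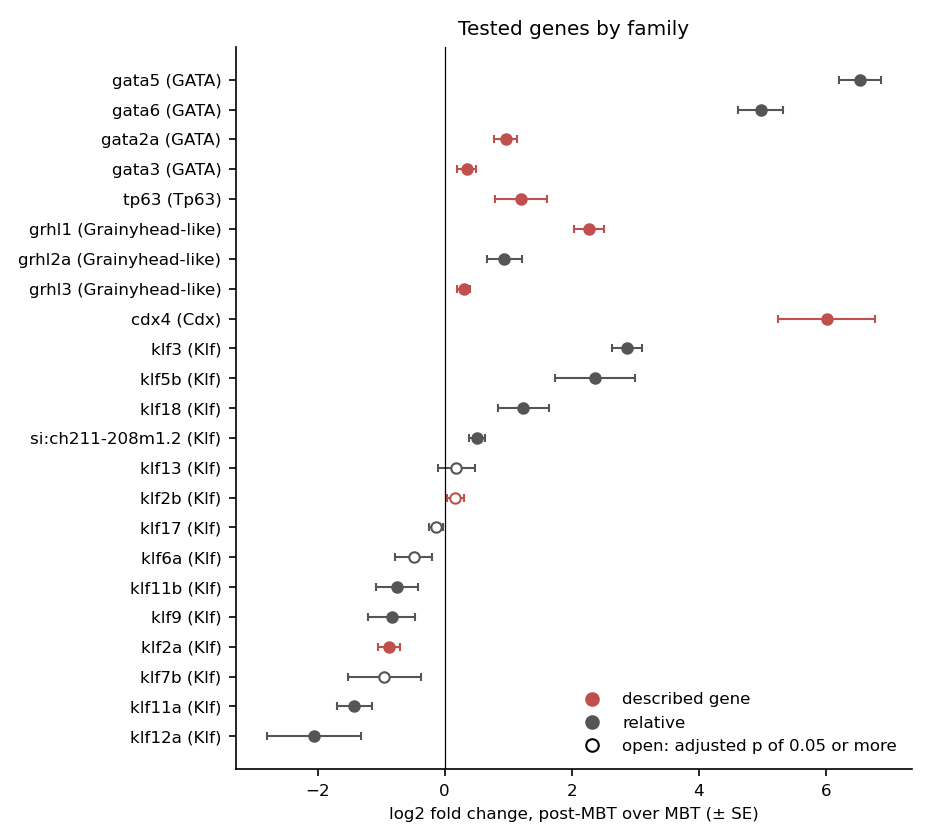
Log2 fold change (horizontal axis, post-MBT over MBT, ± SE) of tested genes of the GATA, Tp63, Grainyhead-like, caudal and Krüppel-like families; red marks the genes described here, grey their relatives, and open points have an adjusted p of 0.05 or more. The Krüppel-like genes run from -2.06 (klf12a, under 10 counts in both post-MBT libraries) to 2.87 (klf3), with klf2a at -0.88.

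In a BMP pathway list that holds antagonists as well as ligands, receptors and targets, 19 of 28 tested genes rose and 6 fell. The median log2 fold change was 1.15 against -0.04 over all tested genes, of which 31.0% were called higher and 31.8% lower. With library totals 16 rose and 6 fell. Of the 28, 3 stayed under 10 counts in every MBT library, bmp4 among them, and all 3 were called higher. Another 4 did so in every post-MBT library, of which 3 were called lower (bmpr1ba, gdf6a and twsg1a). Those genes were tested mostly because of their MBT counts, which nearly fixes their direction. The 3 with the smallest adjusted p were the repressor genes vent (4.72 ± 0.17) and ved (3.14 ± 0.13) and the pseudoreceptor gene bambia (3.07 ± 0.13). The ligand genes bmp4, bmp7a and bmp2b rose by log2 fold changes of 6.19 ± 0.33, 2.14 ± 0.12 and 0.47 ± 0.15, and the transducer gene smad5 by 0.39 ± 0.08. The calls of bmp2b and smad5 were lost with library totals, where smad5 turned below 0, and that of bmp2b also with DESeq2 and without post-MBT A. The falls were the receptor genes bmpr1ba and acvr2aa, the ligand gene gdf6a, the extracellular regulator genes twsg1a and bmp1b, and id2a. With DESeq2 and without post-MBT A, bmpr1ba, acvr2aa and twsg1a were the only falls called. Among these, acvr2aa alone reached 10 counts post-MBT.

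Among other factors of ectoderm and its neural border, 11 of 13 tested genes rose, where 31.0% of all tested genes were called higher. The other 2 fell (irx7 among them), where 31.8% of all tested genes were called lower, and the median of the list was 2.21. With library totals 9 rose and 2 fell. Of the rises, 3 were of genes under 10 counts in every MBT library. The leading members were the neural genes zic2b (2.21 ± 0.07) and sox3 (2.51 ± 0.09) and tfap2c (3.96 ± 0.15), an AP-2 factor of non-neural ectoderm. The gene tfap2c had 125 and 134 CPM in post-MBT A and B, against 6.13, 9.64 and 8.36 CPM in MBT A, B and C. Its relative tfap2a rose by a log2 fold change of 0.45 ± 0.15 (edgeR adjusted p = 0.00848), a call lost in 4 of 11 alternatives (library totals, DESeq2, without MBT A and without post-MBT A). Without post-MBT B neither fall was called. A further 16 genes of this list, among them dlx3b and eya1, were not tested because of low counts.

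A list of posterior Wnt, T-box and Hox genes also held general Wnt pathway genes, among them ctnnb1, tcf7l1a, lef1, axin1 and axin2. Of its 16 tested genes 12 rose and 2 fell (evx1 and axin1), with a median of 1.91. Over all tested genes, 31.0% were called higher and 31.8% lower. With library totals 11 rose and 4 fell. Genes under 10 counts in every MBT library made up 5 of the 12 rises, and evx1 was under 10 counts in both post-MBT libraries. The leading members were the T-box genes ta (5.57 ± 0.12) and tbx16 (2.75 ± 0.08) and wnt11 (3.42 ± 0.15). Of 8 Hox genes listed, hoxb1a, hoxa9b and hoxb7a were found in the table, and they had at most 1 count in any library.

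Enveloping layer genes were measured beside the Grainyhead-like and Krüppel-like genes, because that layer also expresses them. Of 19 tested genes 17 rose and none fell, with a median log2 fold change of 2.53, and 3 of the rises were of genes under 10 counts in every MBT library. Over all tested genes, 31.0% were called higher and 31.8% lower, with a median of -0.04. The summed level of the list was 1729 to 1748 CPM post-MBT against 519 to 567 CPM at the MBT. The leading members were krt8 (3.36 ± 0.10), evpla (5.15 ± 0.17) and krt4 (2.88 ± 0.12), which encode keratins and envoplakin. The keratin gene cyt1 was at 0 in all MBT libraries, and the median stayed at 2.53 with cyt1 at its lower bound of 3 MBT counts over the group. With library totals 17 rose and 2 fell, and without MBT A 1 fell. The part of this layer in the levels of grhl1, grhl3, klf2a and klf2b was not tested. Of 7 tested genes of the yolk syncytial layer, 5 were under 10 counts in every MBT library, gata6 among them, and were tested only because of their post-MBT counts, so the 6 rises in this list are no support for a direction. For scale, 31.0% of all tested genes were called higher. The gene mxtx2 fell, with a call that was lost in 8 of 11 alternatives. The labels do not say how much of this layer was kept when the yolk was removed.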

How the data were processed

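RNA was sequenced from 2 post-MBT and 3 MBT libraries, each made, per the labels' protocols, from 5 ng of total RNA by random-hexamer reverse transcription and tagmentation with 10 PCR cycles. Novoalign 2.8 and DESeq2 are the tools listed in the submitters' processing notes. The deposited counts are alignments that overlap a gene by at least 1 base, per the file headers, on the build D_rerio_Sep_2014. The authors' log2 ratio (MBT over post-MBT) comes from DESeq2, per the file headers, and the deposited score is a scaled negative log10 of its adjusted p. The treatment of multi-mapped reads and of strand is not given in these sources, so reads shared with a gene on the other strand or with a paralog may be assigned to either. Other gene models overlap gata2a, gata3, tp63, cdx4, cdx1b and klf2b, and each of these models spans at least 17709473 bases. None overlaps grhl1, grhl3 or klf2a. How reads in such overlaps were counted is not given in these sources. The other 10 columns of per-library values were not used. Count columns name a stage but no sample, so libraries carry letters in column order.

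Counts were tested with edgeR 4.0.16 in R 4.3.3 (filterByExpr at a minimum of 10 counts, TMM scaling, glmQLFit with robust estimation, glmQLFTest, prior count 0.125). The fit was checked on simulated counts in which few genes changed, up and down alike, with a common dispersion. That check could not test the choice of scaling. Standard errors come from the fitted coefficient and its F statistic. Count columns of 1 stage were not copies of each other: over nuclear genes, they gave 1.265 to 1.915 chi-square units per degree of freedom. Whether columns of 1 stage came from the same RNA cannot be told from these values. The relative precision of a level is set by its count. Exact permutation tests used scipy 1.17.1. Alternatives were DESeq2 1.42.0, other scaling factors, no count filter, no mitochondrial genes, and each library left out. Gene lists were matched by symbol, or by an older symbol where RefSeq (assembly GRCz12tu) paired it with a symbol in the table. The genes and lists were chosen with earlier results of these data known. Named are all 9 genes, tested relatives, the 3 genes with the smallest adjusted p in each list, and the nearest gene by level. Of the listed genes, 2 are counted in their lists but not reported here. Other named genes were chosen after their values were seen.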

Additional observations from a re-analysis of the deposited data

How the results depend on the processing

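Of the 8 tested genes, gata2a, grhl1, cdx4 and klf2a kept their direction and call in all 11 alternatives. The direction of cdx4 was nearly fixed, because only its post-MBT counts reached the count minimum. With library totals 3 genes were called higher, and gata3 (-0.06), grhl3 (-0.11) and klf2b (-0.24) turned below 0; the median of all genes moved by -0.41 there (by 0.14 with DESeq2, over 22656 genes), and over all genes 2173 were called higher and 5574 lower. With DESeq2 3 of the 9 were called higher, and over all genes 3001 were called higher and 2539 lower. Leaving out 1 library each left 4 to 6 of the 9 called higher and 1 lower.

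Among relatives, 7 fell and 5 rose with library totals, 1 fell with DESeq2, 2 fell with RLE factors, with upper-quartile factors and without mitochondrial genes, and 1 to 3 fell with 1 library left out. In the BMP pathway 3 fell with DESeq2 and 3 to 6 with 1 library left out. Among ectoderm factors 1 fell with DESeq2 and 0 to 2 with 1 library left out. With library totals 4 posterior and 2 enveloping layer genes fell, and 0 to 1 enveloping layer genes fell with 1 library left out. In the yolk syncytial layer list 0 genes fell with RLE factors, upper-quartile factors, no filter, DESeq2 and without mitochondrial genes, and 0 to 1 with 1 library left out. Of the markers of differentiated tissues, 1 rose with no filter and with DESeq2. The cause of these changes was not tested.

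The change in the log2 ratio of cdx4 to cdx1b ran from 3.95 to 6.31 with 1 library left out, and cdx1b has too few counts to follow. With no filter cdx1b was tested and not called (edgeR adjusted p = 0.944). The order of levels per length with the deposited FPKM values was not run. Intervals and floors cover counting error only. No paired analysis was possible because the count columns carry no replicate number of the labels.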
